A study of Mus musculus with 13 samples.

Results

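The genes described are 6 of the mouse trypsinogens (Prss1, Prss2, Prss3, Try4, Try5 and Try10) and the secreted trypsin inhibitor Spink1. They are 7 of the 23366 genes in a table of RNA levels in whole pancreas. They were found by matching the Entrez identifiers of the table to gene symbols, and all 7 were present. None of the 7 met the threshold for a changed gene with age or after transient reprogramming, which was a fold change over 1.5 with a raw p under 0.01. In all 13 mice Prss2, Try4 and Try5, in this order, were among the most abundant transcripts of the tissue, and the other 4 lay far below. The clearest difference was small: Prss2 was 1.15-fold higher in old than in young mice (95% interval 1.07 to 1.25), with no overlap between the groups. Its limma adjusted p was 0.32, and 2.71% of all genes also had groups that did not overlap. The values are normalized by rank, so the size of this difference reflects a step between neighboring ranks and not a measured amount of RNA.

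Trypsinogens are made by acinar cells, the cells that fill most of the exocrine pancreas, and are stored as inactive precursors with the other digestive enzymes. In the gut, enteropeptidase removes a short activation peptide and turns trypsinogen into trypsin, which then activates the other stored enzymes. Trypsin that forms too early inside the pancreas can damage it, and SPINK1, a small Kazal-type inhibitor that acinar cells store in the same granules, blocks such trypsin. The mouse Spink1 gene was formerly called Spink3.

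All mice were females of the reprogrammable strain i4F-B, which carries a doxycycline-inducible, ubiquitous cassette for OCT4, SOX2, KLF4 and MYC (OSKM) inserted in the Pparg gene. The young group held 4 untreated mice aged 13 weeks and the old group 5 untreated mice aged 55 weeks. The old-OSKM group held 4 mice given doxycycline for 7 days from 55 weeks of age and then left to recover for 2 weeks, so that they were 58 weeks old at sampling. The doxycycline was given in drinking water with added sucrose. No mice without the cassette given this water were analysed here, so the effects of OSKM, doxycycline and sucrose cannot be told apart. Old and old-OSKM mice also differed by 3 weeks in age. Each mouse gave 1 library from RNA depleted of ribosomal RNA. The question behind the comparisons was whether levels that shift with age move back after a short burst of OSKM.

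The values were log2 RPKM (reads per transcript length and sequencing depth), quantile normalized by the authors, so every mouse carried the same set of values in a different order of genes. At any given rank the 13 mice were within 0.0116 of each other on the log2 scale. At the very top of the list this leaves few possible values: 11.11, 11.00, 10.80, 10.62, 10.42 and 10.38 for ranks 1 to 6. The enzymes Ctrb1, Cela2a and Amy2a5 held ranks 1 to 3 in all 13 mice and so had identical values in every sample. A level at these ranks is therefore a statement about order, and equal values in several mice are not equal measurements. Read depth per mouse is not in the table.

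Acinar identity of the tissue was clear in all samples. The 14 acinar markers summed to 12600 RPKM in old-OSKM mouse 4 and to between 13000 and 13700 in the rest. Of the 14, 5 were lower in that mouse than in any other and 1 was higher. Ctrb1, Cela2a and Amy2a5 are among the 14 and had identical values in every mouse. The sum therefore says little about differences in acinar content between mice. The library of old-OSKM mouse 4 had the lowest correlation with the rest, though young mouse 3 and old-OSKM mouse 1 came close at 0.972 each. The median correlation of old-OSKM mouse 4 with the other mice was 0.967, against 0.972 to 0.984 for the others. In old-OSKM mouse 4, 5 of the 6 trypsinogens were lower than in any other mouse. In the same library 7 of 8 endothelial, 6 of 10 islet, 5 of 10 duct, 5 of 8 fibroblast and stellate, 2 of 8 macrophage and 1 of 8 adipocyte markers were higher than in any other mouse, as were 2 of 9 acinar transcription factors and 2 of 21 other digestive enzymes. Of the latter lists 5 and 9 genes were lower in it than in any other mouse. So was 1 of the 10 duct markers, and no B and plasma cell or T cell marker was highest or lowest in it. The islet markers summed to 508 RPKM against 80.6 to 395 in the rest. In whole tissue, fewer cells of a type and less RNA per cell cannot be told apart. Where leaving this library out moved a result, the value without it stands beside it.

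The 6 trypsinogens lie in 1 cluster on chromosome 6, next to the T cell receptor beta genes. In the mm10 build (GRCm38.p6, RefSeq) the order along chromosome 6 was Try4 at chr6:41302272-41305533, Try5 at chr6:41311232-41314710, Try10 at chr6:41354105-41357944, Prss3 at chr6:41373759-41377613, Prss1 at chr6:41458930-41463786 and Prss2 at chr6:41521776-41525079. Try5 and Prss3 are read from the reverse strand and the other 4 from the forward strand. A further 6 family genes of the cluster were in the table: 2210010C04Rik, Gm10334, Gm5771, Gm2663, 1810009J06Rik and Gm5409, the last annotated as a pseudogene.

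The family shares much of its sequence, which bears on how well the genes can be told apart by short reads. The activation site shows this best. It is the part cleaved by enteropeptidase, 4 aspartate codons and a lysine codon, printed in capitals below with 9 bases before and 15 after from the coding sequence (GENCODE M21, gene strand), all within exon 2.
Prss2: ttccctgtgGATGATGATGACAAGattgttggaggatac
Try4: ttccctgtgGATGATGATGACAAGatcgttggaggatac
Try5: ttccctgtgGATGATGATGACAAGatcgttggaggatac
Prss1: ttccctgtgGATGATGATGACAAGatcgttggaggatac
Try10: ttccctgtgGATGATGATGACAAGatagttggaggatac
Prss3: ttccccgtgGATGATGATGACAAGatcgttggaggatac
2210010C04Rik: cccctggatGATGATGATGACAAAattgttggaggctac
Gm5771: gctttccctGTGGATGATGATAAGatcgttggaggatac
Gm2663: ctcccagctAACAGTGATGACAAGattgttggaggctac
The Prss2 stretch lies at chr6:41522822-41522860 and that of Try4 at chr6:41303289-41303327. Over these 39 bases Try4, Try5 and Prss1 were identical to each other and differed from Prss2 at 1 base, while Prss3 differed from Prss2 at 2. The site itself was the same in all 6 trypsinogens. Gm10334 had the same 39 bases as Prss3, and 1810009J06Rik the same as Gm2663. In the last 3 lines above the site departs from the rest: 2210010C04Rik carries a further aspartate codon before it, Gm5771 has 1 aspartate codon fewer, and Gm2663 has other codons in place of the first 2 aspartate codons.

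Over the whole coding sequence Prss3 and Gm10334 were 99.1% identical, Prss1 and Gm5771 98.0%, Try4 and Try5 97.4%, and Gm2663 and 1810009J06Rik 99.5%. Prss2 was no more than 91.7% identical to any of the 5 other trypsinogens studied. Every transcript was then cut into overlapping windows of 50 bases, the length of 1 read, and each window was looked for in the transcripts of all other genes. Only 7.83% of the Prss2 windows occurred in another gene. The share was 40.8% for Try10, 53.9% for Try5, 54.9% for Prss1, 65.6% for Try4 and 66.1% for Prss3. For 2210010C04Rik it was 0 of 2093 windows.

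Reads that mapped to 5 or more places were discarded by the authors, who give the parameter keep.multihits as set to FALSE. Whether a read shared by fewer genes was counted or dropped, and how it was divided if counted, is not stated in the sources used here. By these windows most of the Prss2 transcript is sequence of its own, and most of that of Prss3 is shared with Gm10334. The reads were paired, so a pair with 1 shared read could still be placed by the other. How reads were assigned was not examined. Over the 13 mice the log2 RPKM of Prss3 and Gm10334 had a Pearson r of 0.99, and 0.97 without old-OSKM mouse 4, with Prss3 higher by 0.74 ± 0.07 (SD, n = 13). For Prss1 and Gm5771 r was 0.72, and 0.62 without that mouse. These 2 values of r describe 13 pairs of values from the same libraries. Values of Prss3, Prss1, Try4, Try5 and Try10 are uncertain to the extent that reads were split among such copies or dropped.

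**Figure D1:**
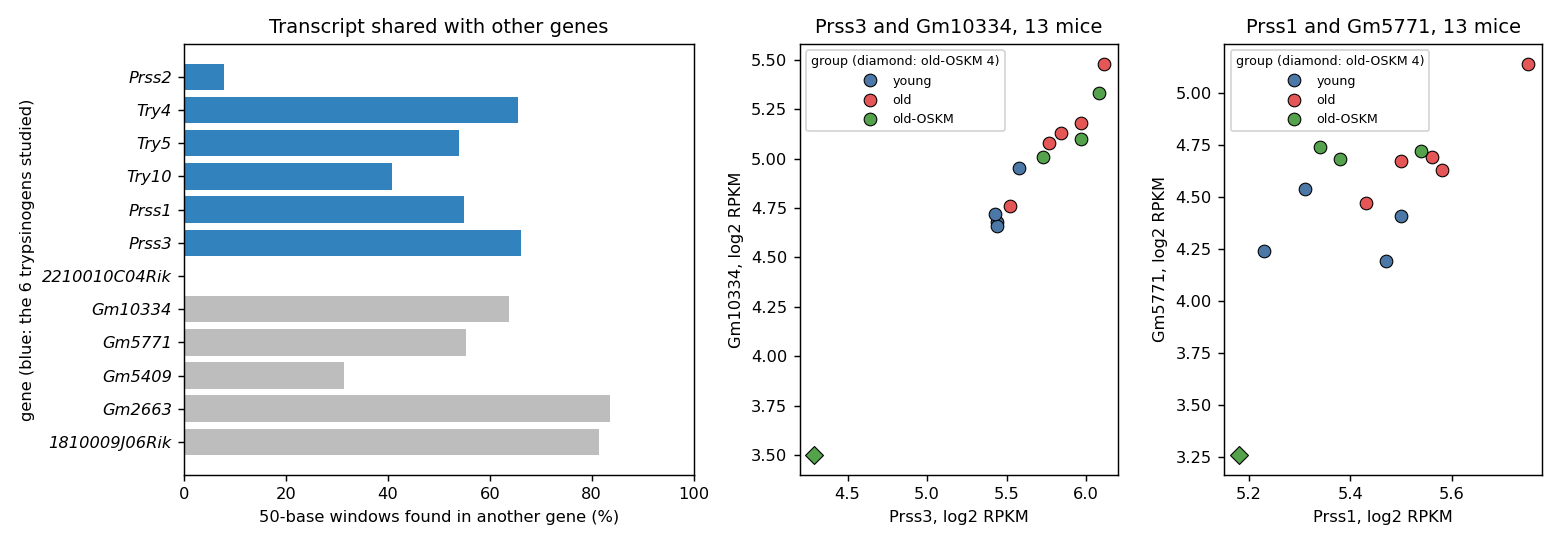
Left, the percentage of 50-base windows of each transcript that also occur in another gene (x axis), for the 6 trypsinogens (blue) and 6 further family genes (grey). Middle and right, log2 RPKM of Prss3 against Gm10334 and of Prss1 against Gm5771 in each of 13 mice, colored by group. Prss2 shares 7.83% and Prss3 66.1% of its windows, and old-OSKM mouse 4 (diamond) lies at the low end of both pairs.

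The levels fell into 3 tiers. Averaged over the 13 mice, Prss2 had a log2 RPKM of 10.54 ± 0.11 (SD), Try4 10.23 ± 0.13 and Try5 9.93 ± 0.25. Spink1 stood at 6.52 ± 0.12 and Try10 at 6.40 ± 0.20. Prss3 (5.63 ± 0.47) and Prss1 (5.44 ± 0.16) were lowest of the 7, though still above 99.7% of genes.

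The order was Prss2 over Try4 over Try5 in all 13 mice, each step being 0.30 on the log2 scale on average. Try5 exceeded Spink1 by 3.41 ± 0.25 (SD, n = 13), a 10.6-fold difference in RPKM. Spink1 and Try10 did not differ beyond their spread, with Spink1 higher in 10 of 13 mice by 0.13 ± 0.18 on average. The same held for Prss3 and Prss1, with Prss3 higher in 10 of 13 mice by 0.18 ± 0.38. Try10 was above Prss3 in all 13 mice.

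Among the other family genes, 2210010C04Rik, which shares no window with any gene, reached 9.73 ± 0.10 and was thus an abundant transcript of the family as well. It lay below Try5 in 11 of 13 mice. Gm10334 averaged 4.89, Gm5771 4.49 and the pseudogene Gm5409 2.90. The pair Gm2663 and 1810009J06Rik was close to the middle of the table, at 0.22 and 0.20.

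The upstream sequence of the genes is shown because strongly and weakly expressed members can be close neighbors in sequence. RefSeq promoters (GRCm38.p6) were found for 4 of the 6 trypsinogens, Prss2, Try4, Prss1 and Prss3, and not for Try5 and Try10. The 120 bases before the annotated start are given for 3 of them, on the gene strand. Capitals mark TATAAA on the gene strand. They also mark CACCTG on either strand, where its reverse reads CAGGTG. On either strand they mark TTTCCC too, where its reverse reads GGGAAA. The last 2 are the letters of the boxes of the binding site of the acinar factor PTF1.
Try4: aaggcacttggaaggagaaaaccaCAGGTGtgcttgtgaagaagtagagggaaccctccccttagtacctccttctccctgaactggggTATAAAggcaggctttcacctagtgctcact
Prss1: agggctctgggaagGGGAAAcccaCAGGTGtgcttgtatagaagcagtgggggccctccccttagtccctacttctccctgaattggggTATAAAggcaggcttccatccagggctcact
Prss2: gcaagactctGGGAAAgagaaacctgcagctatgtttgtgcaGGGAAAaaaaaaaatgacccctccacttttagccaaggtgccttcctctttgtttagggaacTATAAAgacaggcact
The Try4 stretch lies at chr6:41302152-41302271, that of Prss1 at chr6:41458810-41458929 and that of Prss2 at chr6:41521656-41521775, all on the forward strand. Try4 and Prss1 shared 102 of 120 bases (85.0%), yet the Try4 level was 4.79 ± 0.12 higher (SD, n = 13), or 27.6-fold in RPKM. TATAAA occurred in all 8 family windows at hand, against 4.19% of 32851 promoters of all genes. CACCTG or CAGGTG occurred in those of Try4, Prss1 and Gm5771 and in 8.43% of all promoters, and TTTCCC or GGGAAA in those of Prss2, Prss1 and Gm5771 and in 10.5%. These are matches of letters, and binding of any factor was not measured.

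Between old and young mice none of the 7 genes was called (limma across all genes), where 207 genes, or 0.886% of those tested, were. Prss2 was the only one of the 7 with a raw p under 0.05, which 5.52% of all genes had, and none had an adjusted p under 0.05, which 0.0813% of all genes had. With old-OSKM mouse 4 out of the fit, the differences stayed the same but 4 of the 7 had a raw p under 0.05 (Prss2, Try5, Prss1 and Prss3), as did 7.7% of all genes, and none was called (0.984% of all genes). The groups did not overlap for 1 of the 7, Prss2, as for 2.71% of all genes. The mean was higher in old mice for 5 of the 7, as for 54.4% of all genes, and the median difference of the 7 was 0.19 on the log2 scale, against 0.00 over all genes. For 5 of the 7 the 95% interval of the normalized values excluded a 1.5-fold change in either direction, the exceptions being Try5 and Prss3. At the top ranks such an interval says little about the amount of RNA. The values open to a gene there lie close together, with 10.62 at rank 4 and 10.00 at rank 12.

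Prss2, the dominant anionic trypsinogen, had log2 RPKM values of 10.38, 10.42, 10.42 and 10.42 in the 4 young mice and 10.62 in each of the 5 old mice. In the old-OSKM mice it was 10.62, 10.62, 10.62 and 10.38. All old mice and the first 3 old-OSKM mice were thus above all young mice, and old-OSKM mouse 4 was level with the lowest young mouse. The difference between old and young was 0.21 ± 0.05 (SE; limma adjusted p = 0.32). Without old-OSKM mouse 4, whose value enters the estimate of the spread, the difference was the same and the limma adjusted p was 0.014, still below the 1.5-fold threshold. The 5 old values are all that of rank 4, with an SD of 0.00. This p therefore rests on tied ranks and not on measured variation in Prss2 between mice. An exact two-sided permutation test on the 9 young and old mice gave p = 0.016, the smallest value it allows.

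In terms of order, this was an exchange of neighboring ranks. Prss2 held rank 5 or 6 in the young mice and rank 4 in all 5 old mice. Pnlip, the main pancreatic lipase, held rank 4 in all 4 young mice and ranks 5 to 8 in the old mice. Its level was 10.62 in each young mouse and between 10.24 and 10.42 in the old mice, a difference of -0.26 ± 0.05 (SE; limma adjusted p = 0.092). Since the step between ranks 4 and 5 is fixed at 0.19 by the normalization, the size of the Prss2 difference reflects that step. The log2 ratio of Prss2 to Pnlip was -0.21 ± 0.02 (SD, n = 4) in young and 0.26 ± 0.09 (n = 5) in old mice.

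**Figure D2:**
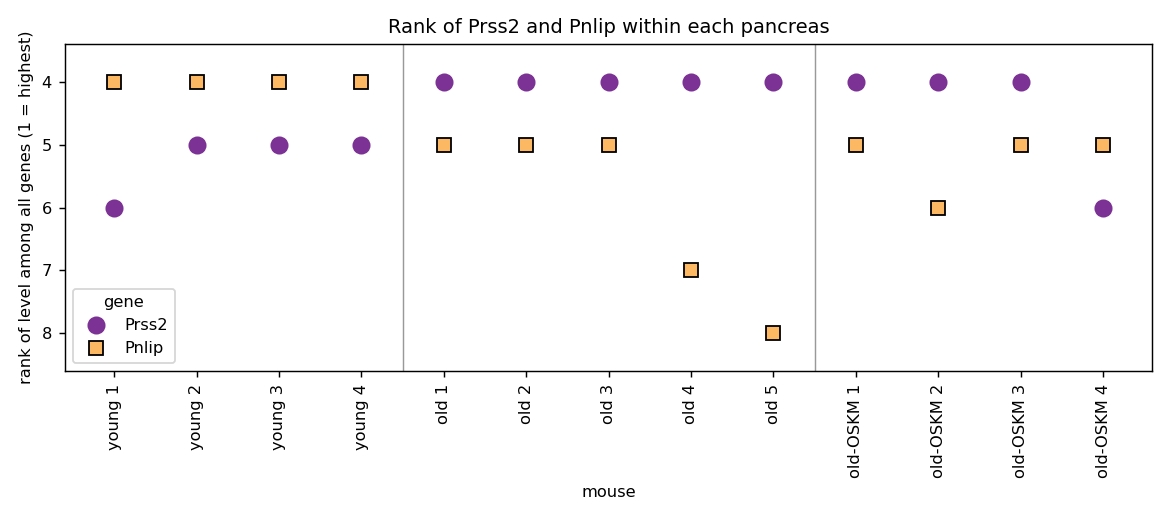
Rank of Prss2 (circles) and Pnlip (squares) among all 23366 genes (y axis, rank 4 at the top) in each of the 13 mice (x axis), with lines between the groups. Pnlip holds rank 4 in all 4 young mice, and Prss2 holds it in all 5 old mice and in old-OSKM mice 1 to 3.

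Try5 was 9.95, 9.81, 9.57 and 9.81 in young mice and 10.00, 9.95, 10.00, 10.38 and 10.16 in old mice. Old mice 4 and 5 were highest, and the groups met at 9.95. The difference of 0.31 ± 0.15 (SE) had a limma adjusted p of 0.91, and of 0.42 with an error of 0.10 when old-OSKM mouse 4 was left out. Its close relative Try4 showed no such shift, with 10.16 to 10.30 in young and 10.12 to 10.42 in old mice and an old to young ratio of 0.998 (95% interval 0.871 to 1.14). Whether Try4 and Try5 differed in their response to age was not tested.

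Prss3 was 5.44, 5.58, 5.44 and 5.43 in young mice and 5.97, 5.52, 5.84, 6.11 and 5.77 in old mice. Only old mouse 2 fell within the young range. The difference was 0.37 ± 0.30 (SE; limma adjusted p = 1). Without old-OSKM mouse 4 the error was 0.11 and the adjusted p 0.40. An exact two-sided permutation test on the young and old mice alone gave p = 0.032, unadjusted. Its near copy Gm10334 differed by 0.37 as well (adjusted p = 1).

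Prss1 ranged from 5.23 to 5.50 in young and from 5.43 to 5.75 in old mice, a difference of 0.19 ± 0.09 (SE; limma adjusted p = 0.92). Try10 ranged from 6.17 to 6.64 in young and from 6.26 to 6.49 in old mice, and the groups overlapped fully. Spink1, which spans chr18:43728069-43737237, was 6.42, 6.64, 6.42 and 6.49 in young and 6.57, 6.49, 6.73, 6.42 and 6.42 in old mice. The old to young ratio of Spink1 was 1.02, with a 95% interval of 0.898 to 1.17.

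None of the 6 other family genes was called or had a raw p under 0.05 in any comparison of the 13 mice. When old-OSKM mouse 4 was left out, 4 of the 6 had a raw p under 0.05 between old and young mice, as did 7.7% of all genes, with none called. Between old-OSKM and young mice 4 of the 6 had one, as did 5.81% of all genes. In that comparison 2 of the 6 were called higher, against 0.766% of all genes: Gm2663 by 1.56 ± 0.41 (SE; limma adjusted p = 0.51) and 1810009J06Rik by 1.67 ± 0.49 (adjusted p = 0.58). The widest differences were those of the lowly expressed pair. 1810009J06Rik was -1.68 to 0.32 in young and -0.10 to 1.34 in old mice, and 4 of 5 old mice were above all young mice. It differed by 1.18 ± 0.57 (SE; limma adjusted p = 0.94), and Gm2663, which shares 83.5% of its windows with it, by 0.97 ± 0.50 (adjusted p = 1). Gm5771 differed by 0.37 ± 0.28 (adjusted p = 1), and 2210010C04Rik had an old to young ratio of 0.983 (95% interval 0.882 to 1.10).

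**Figure D3:**
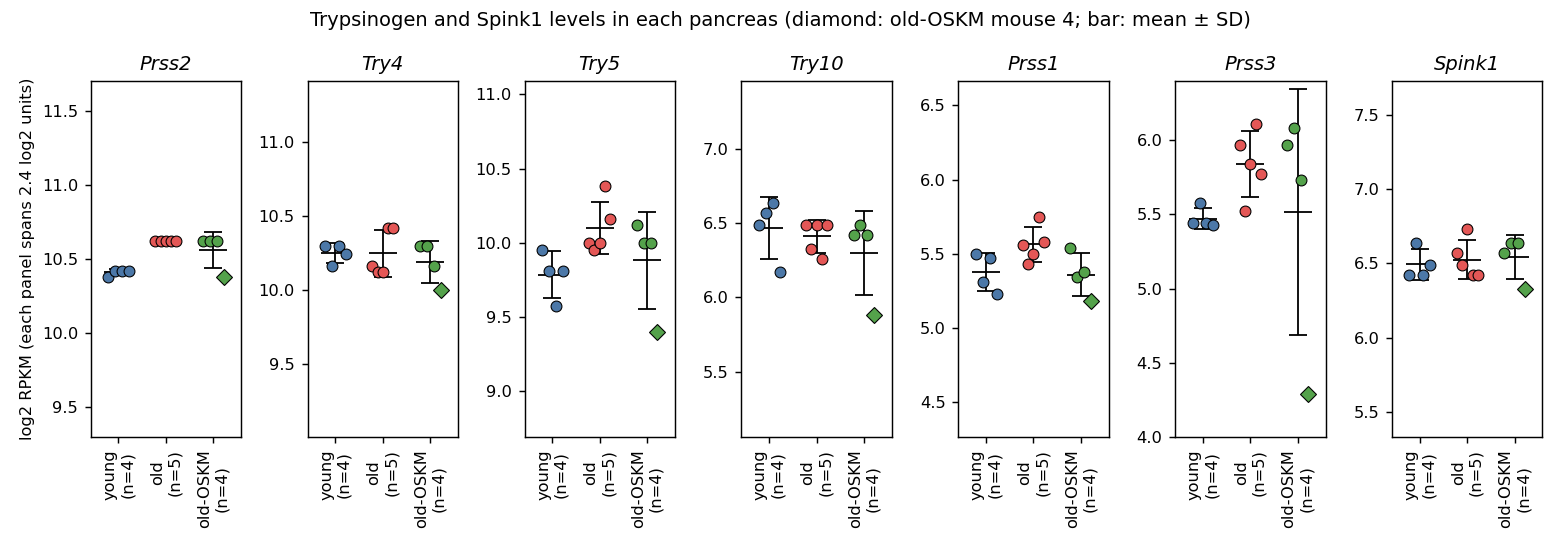
Log2 RPKM (y axis, each panel 2.4 units high) of the 7 genes in each young (n = 4), old (n = 5) and old-OSKM (n = 4) mouse, with mean ± SD. All old values of Prss2 lie at 10.62, above the 4 young values, and the diamond marks old-OSKM mouse 4, which is lowest of all mice for Try4, Try5, Try10, Prss1 and Prss3.

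After transient reprogramming, again none of the 7 genes was called between old-OSKM and old mice, against 0.753% of all genes. Prss1 alone had a raw p under 0.05, as did 8.07% of all genes, and no adjusted p was under 0.05 (0.00428% of all genes). The groups overlapped for all 7 genes, whereas they did not for 1.73% of all genes. All 6 trypsinogens had a lower mean in old-OSKM than in old mice and Spink1 a mean higher by 0.02, where 36.9% of all genes had a higher mean. The median of the 7 differences was -0.11, against -0.04 over all genes. Much of this rested on old-OSKM mouse 4: without it Try4 (0.01), Try10 (0.03) and Prss3 (0.08) were on the other side of 0, and Prss2 was at 0.00. None of the 7 then had a raw p under 0.05, which 6.23% of all genes had.

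Prss1 was 5.54, 5.34, 5.38 and 5.18 in old-OSKM mice, and 3 of these lay below all 5 old mice. The difference from old mice was -0.21 ± 0.09 (SE; limma adjusted p = 0.55), and -0.15 without old-OSKM mouse 4 (adjusted p = 0.80). Try5 was 10.12, 10.00, 10.00 and 9.40, the last again in mouse 4. Its difference from old mice was -0.22 ± 0.15 (limma adjusted p = 0.61), and -0.06 without that mouse.

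Prss3 was 5.97, 6.08, 5.73 and 4.29 in the old-OSKM mice. The first 3 lay within the range of the old mice and the last was far below every other mouse. The difference from old mice was -0.32 ± 0.30 (SE; limma adjusted p = 0.63). The same mouse was lowest for Gm10334 (3.50 against 4.66 to 5.48 in the other 12), Gm5771 (3.26 against 4.19 to 5.14) and Gm5409 (1.57 against 2.86 to 3.28), whereas 2210010C04Rik was 9.76 to 9.81 in all 4 old-OSKM mice. The 21 other digestive enzymes summed to 16700 RPKM in this mouse and to between 17500 and 18500 in the rest. The part of its cell makeup in these values was not tested.

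Spink1 was 6.57, 6.64, 6.64 and 6.33 in old-OSKM mice, within 0.31 of each other. The ratio to old mice was 1.01 (95% interval 0.889 to 1.15) and that to young mice 1.04 (0.903 to 1.19).

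The comparison of old-OSKM with young mice shares its samples with the other 2 comparisons. None of the 7 genes was called (0.625% of all genes were), none separated the groups (1.9% of all genes did) and none had an adjusted p under 0.05 (0.0428% did). The mean was higher in old-OSKM mice for 4 of the 7 and for 38.7% of all genes. Prss2 alone had a raw p under 0.05, as did 5.07% of all genes, with a difference of 0.15 ± 0.05 (SE; limma adjusted p = 0.71). Without old-OSKM mouse 4 the difference was 0.21 and the limma adjusted p 0.043, which again rests on tied ranks. The 3 remaining old-OSKM mice had the same Prss2 values as old mice and not those of young mice. Prss3 differed from young mice by 0.04 with that mouse and by 0.45 without it (limma adjusted p = 0.57), and Try5 by 0.10 and 0.26 (adjusted p = 0.85). Without it Prss2, Try5 and Prss3 had a raw p under 0.05, as did 5.81% of all genes. In this comparison the 95% interval of the normalized values excluded a 1.5-fold change for 6 of the 7 genes, with Prss3 the exception. The same held between old-OSKM and old mice. For the top-ranked Prss2, Try4 and Try5 these intervals again say little about the amount of RNA.

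**Figure D4:**
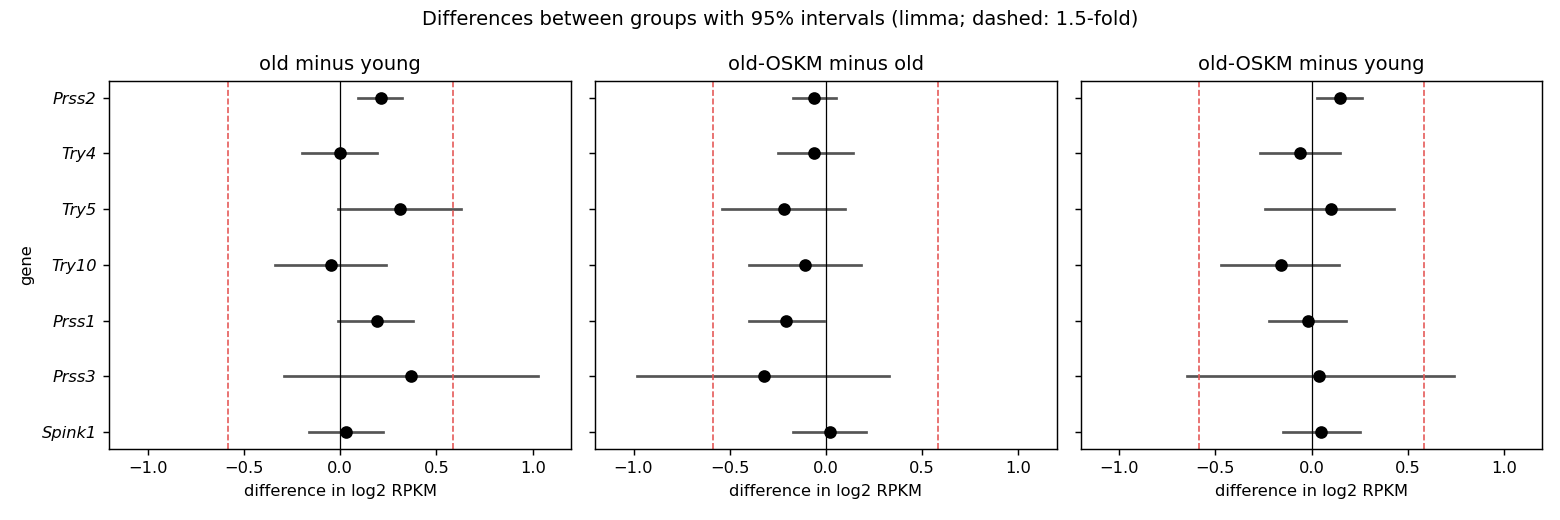
Difference in mean log2 RPKM (x axis) with its 95% interval from limma for each of the 7 genes (y axis) in the 3 comparisons, with dashed lines at a 1.5-fold change in either direction. No point lies beyond a dashed line, and the intervals of Prss3 are the widest.

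Added together, the 6 trypsinogens made up 5.02% to 7.14% of all RPKM in a mouse. The sum was 3765, 3597, 3585 and 3634 RPKM in young mice and 3939, 3843, 3902, 4482 and 4284 in old mice. It was 4147, 4058, 3919 and 3148 in old-OSKM mice. All old mice and the first 3 old-OSKM mice were above the highest young mouse, and old-OSKM mouse 4 was below every other. The mean log2 sum was 11.83 ± 0.03 (SD) in young, 11.99 ± 0.10 in old and 11.89 ± 0.18 in old-OSKM mice, and no test was made on this sum. When mouse 4 was left out the old-OSKM mean was 11.98 ± 0.04, and the difference from old mice went from -0.11 to -0.02 and that from young mice from 0.06 to 0.15.

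The 3 abundant genes supplied most of the sum in all groups. Prss2 supplied 37.5% ± 1.32 (SD) in young, 38.6% ± 2.54 in old and 39.8% ± 1.95 in old-OSKM mice, Try4 33.5% ± 1.44, 29.9% ± 1.48 and 30.9% ± 1.38, and Try5 24.2% ± 2.14, 26.9% ± 1.69 and 24.9% ± 2.39. The Try4 share ran from 31.8% to 35.3% in young and from 28.6% to 32.1% in old mice, and the Try5 share from 21.2% to 26.2% and from 25.7% to 29.8%, so that the groups overlapped for both and no test was made. In the first 3 old-OSKM mice the shares were 38.9% ± 1.11 for Prss2, 30.3% ± 1.01 for Try4 and 26.1% ± 0.85 for Try5, and that of Prss3 was 1.51% in place of 1.29%. Try10, Prss1 and Prss3 supplied at most 2.79% each in any mouse. With 2210010C04Rik and the other family genes added, the sum ranged from 4040 to 5443 RPKM.

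For every RPKM of Spink1 there were 40.5 ± 3.34 (SD) RPKM of the 6 trypsinogens in young mice, 44.6 ± 6.40 in old mice and 40.7 ± 2.22 in old-OSKM mice. The abundant family gene 2210010C04Rik, at 849 RPKM on average over the 13 mice, is not counted in these ratios. The highest ratios were those of old mice 4 (52.3) and 5, and the other 11 mice ranged from 36.0 to 43.9. The 3 groups overlapped. In old-OSKM mouse 4 the ratio was 39.0, because Spink1 was lowest there too.

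**Figure D5:**
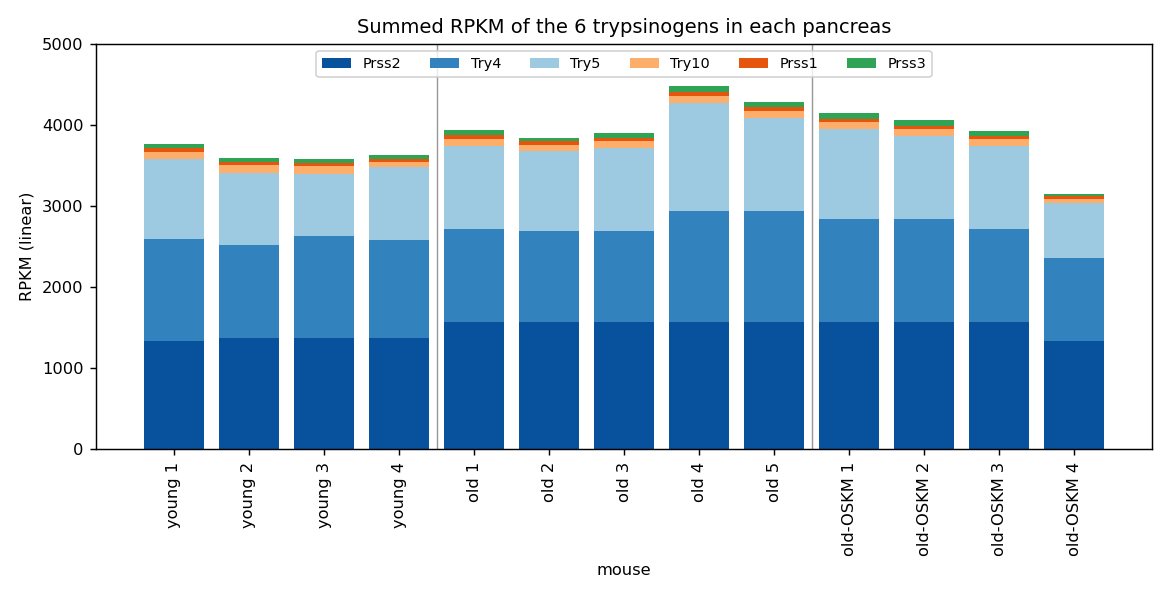
Summed RPKM (y axis, linear, from 0) of the 6 trypsinogens in each of the 13 mice (x axis), stacked by gene, with lines between the groups. Prss2, Try4 and Try5 form nearly the whole bar in every mouse, and the sum ranges from 3148 in old-OSKM mouse 4 to 4482 in old mouse 4.

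A list of 19 genes was grouped under trypsin control, though not all of them act on trypsin itself. None of the 19 was called in any comparison of the 13 mice. In each comparison 1 of the 19 had a raw p under 0.05. Of all genes 5.52% (old against young), 8.07% (old-OSKM against old) and 5.07% (old-OSKM against young) had one. Between old and young mice it was Itih4, a heavy chain of the inter-alpha-trypsin inhibitor family. Itih4 was higher in old mice by 0.83 ± 0.35 (SE; limma adjusted p = 0.84), and the groups did not overlap, as for 2.71% of all genes. Itih4 was lowest in old-OSKM mouse 4. With that mouse left out its error was 0.25 and it was called (limma adjusted p = 0.39), as were 0.984% of all genes. Between old-OSKM and old mice it was Ctsl, the lysosomal protease cathepsin L, which can inactivate trypsinogen, with -0.20 ± 0.07 (limma adjusted p = 0.55), and -0.14 ± 0.06 without old-OSKM mouse 4 (adjusted p = 0.78), which was lowest at 3.69. Between old-OSKM and young mice it was Ctsb, cathepsin B, which can activate trypsinogen, with 0.19 ± 0.07 (limma adjusted p = 0.71). The medians of the list were -0.01, -0.17 and -0.08 in the 3 comparisons, beside 0.00, -0.04 and -0.04 over all genes. Tmprss15, the enteropeptidase of the gut, was at or below -4.18 in all mice.

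Spink1 was the only Kazal-type inhibitor at a high level. The 12 other Spink genes had mean levels of at most -1.58, and none was called or had a raw p under 0.05 in any comparison. Their medians were 0.01 (old against young), -0.12 (old-OSKM against old) and -0.10 (old-OSKM against young). Without old-OSKM mouse 4 the last 2 medians were -0.05 and -0.04. At such low levels the lack of calls says little about these genes. Spink6, for example, had an SD of 0.06 in young and 0.05 in old mice, and was lowest in old-OSKM mouse 4 at -2.84. The gene closest to Spink1 in level on the list grouped under trypsin control was Serpini2, a pancreatic serpin, at 6.62.

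Of the 21 other digestive enzymes none was called in any comparison. Ctrb1, Cela2a and Amy2a5 are among the 21, had identical values in every mouse and could not differ. Others lie at top ranks, where the values open to a gene are close together, with 10.62 at rank 4 and 10.00 at rank 12. The lack of calls and the small differences on this list are therefore in part set by the normalization. Between old and young mice Pnlip and the chymotrypsin-like protease Ctrl had a raw p under 0.05, as did 5.52% of all genes. Ctrl was lower in old mice by -0.17 ± 0.05 (SE; limma adjusted p = 0.39), with no overlap, as for 2.71% of all genes. It held ranks 11 to 15 over the 13 mice, so this too is a shift of a few ranks. The median of the 21 was 0.00 on the log2 scale in that comparison, the differences ranging from -0.26 to 0.14. Between old-OSKM and young mice Pnlip differed by -0.21 ± 0.05 (limma adjusted p = 0.49) and Ctrl by -0.14 ± 0.05 (adjusted p = 0.71). Between old-OSKM and old mice the smallest p of the list was that of the elastase Cela3b, with -0.11 ± 0.05 (adjusted p = 0.55), and -0.06 without old-OSKM mouse 4 (adjusted p = 0.80), which was lowest at 9.57. Of 9 transcription factors of acinar cells, among them Ptf1a and Rbpjl, none was called or had a raw p under 0.05 in any comparison, and the medians were 0.05, -0.11 and -0.06.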

How the data were processed

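Pancreas RNA of 13 mice was analysed. The authors aligned reads to mm10 with STAR 2.3.0e, estimated RPKM with Casper after dropping reads that mapped to 5 or more places, added up isoforms per Entrez gene, took log2 and quantile normalized; the deposited table holds these log2 RPKM values for 23366 genes. A correction for total reads that the authors describe is not in the table. Depth per mouse is unknown, so no counting interval is given.

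From the table, limma 3.58.1 (R 4.3.3) was fitted to all genes and all 13 mice with group as the only factor, with Benjamini-Hochberg adjustment over 23366 genes. A gene was called at a fold over 1.5 and a raw p under 0.01. The fit was tested on simulated data first. Exact permutation tests (scipy 1.17.1) were two-sided. Sums, ratios, ranks and correlations are descriptions. The 7 genes and all gene lists were chosen with earlier results of these data known. Named were all 7 genes, the 6 other family genes, and of the further lists the called genes and some of those with the smallest raw p. Values of the lists and of the sum without old-OSKM mouse 4 were added after seeing the data. Symbols came from RefSeq (23273 genes matched). Replicates are single mice and p-values measure the spread between their normalized values, which for top-ranked genes is a spread of ranks.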

Additional observations from a re-analysis of the deposited data

Results flagged for a closer look

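In 45 sets of values (13 genes, the trypsinogen sum and its ratio to Spink1, each in 3 groups), the highest or lowest mouse was checked for a gap to its neighbor that was large against the range of its group, and 9 such mice were found. Chance flags about 1 in 20 sets of values without ties. Several sets here hold tied values, and the rate for those was not measured. Of the 9, 4 were old-OSKM mouse 4, as the lowest: Prss2 at 10.38 (others 10.62), Try10 at 5.88 (others 6.42 to 6.49), Gm5771 at 3.26 (others 4.68 to 4.74) and Gm5409 at 1.57 (others 2.86 to 2.99). In young mice Prss2 was lowest in mouse 1 at 10.38 (others 10.42), a gap of 1 rank, Prss3 was highest in mouse 2 at 5.58 (others 5.43 to 5.44), 2210010C04Rik was highest in mouse 2 at 9.76 (others 9.70) and Gm5409 was highest in mouse 3 at 3.28 (others 2.88 to 2.93). In old mice 2210010C04Rik was lowest in mouse 5 at 9.40 (others 9.76). For genes at the top ranks the possible values are few, and the gaps are steps between ranks.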

How the results depend on the processing

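None of the 7 genes was called in any comparison under any of the 69 alternatives run. Of 504 alternative differences of the 7 genes 309 could not move or moved by less than 0.005, 195 moved by more, and 24 turned sign. The number of genes called over the whole table was 207 for age, 176 for old-OSKM against old and 146 for old-OSKM against young. In the same order it was 44, 35 and 19 among genes with a mean log2 RPKM above 0, 16, 2 and 8 with a pseudocount of 1, 116, 77 and 76 with one of 0.1, and 19, 1 and 10 at an adjusted p under 0.05. Leaving out 1 mouse gave 175 to 280, 94 to 338 and 121 to 253, with 94, 338 and 284 for old-OSKM minus old without old-OSKM mouse 1, 2 and 3, and 253 for old-OSKM minus young without mouse 2. Of the 24, 3 arose with no single mouse left out. With a covariate for the 2 runs of sample identifiers Try4 was 0.03 (old minus young) and Spink1 -0.00 (old-OSKM minus old), and in the 10 mice of the first run Spink1 was -0.01 (old-OSKM minus old). With 1 mouse left out, Try4 ranged from -0.05 to 0.03, Try10 from -0.15 to 0.00 and Spink1 from -0.02 to 0.08 (old minus young), and Spink1 from -0.01 to 0.09 (old-OSKM minus old). For old-OSKM minus old the ranges were -0.10 to 0.01 for Try4, -0.17 to 0.03 for Try10 and -0.51 to 0.08 for Prss3, and for old-OSKM minus young -0.10 to 0.00 for Try4, -0.08 to 0.04 for Prss1 and -0.14 to 0.45 for Prss3. Prss2 differed by 0.22 between old and young mice within that first run. No paired analysis was made because the 3 groups hold different mice. Reads shared among copies, and the few values open to top-ranked genes, limit what small shifts can show.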

Other observations

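Among 8401 genes with a mean log2 RPKM above 0, those whose levels followed the log2 trypsinogen sum most closely over the 13 mice were Nucb1 (Pearson r = 0.92), a calcium-binding protein of the Golgi, the family gene Gm5771 (0.91), Angpt1 (0.91), a ligand of the endothelial receptor TIE2, Rab5a (0.89), a small GTPase of early endosomes, and Ulk2 (0.89), a kinase of autophagy. Without old-OSKM mouse 4 their r was 0.83 to 0.87. For Spink1 they were Msh6 (0.86), Tbc1d4 (0.84), Decr1, Tmem256 and Smim7 (0.82 each). These are the highest of many values of r over the same libraries and carry no test.

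The alpha-1-antitrypsin genes Serpina1a to Serpina1e, plasma protease inhibitors of liver, and the plasma inhibitor Pzp were highest in young mouse 3. Serpina1a was 2.42 there and at most -1.27 in the other 12 mice, and Pzp was 1.71 against at most -1.36. In that mouse the trypsinogen sum was 3585 RPKM, the lowest of the 4 young mice.

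Some markers of other cell types were called between the groups. Of all genes 0.886% (old against young), 0.753% (old-OSKM against old) and 0.625% (old-OSKM against young) were called. With all mice in the fit no marker had a limma adjusted p under 0.05, so these calls rest on the raw p. Calls over the whole table numbered 207, 176 and 146 in the same order. Among genes with a mean log2 RPKM above 0 they numbered 44, 35 and 19. Between old and young mice 1 of 8 B and plasma cell markers was called higher (Jchain, by 2.35, limma adjusted p = 0.55). Of 8 fibroblast and stellate markers 2 were called lower, the collagen genes Col1a1 by -0.93 (adjusted p = 0.47) and Col3a1 by -1.04 (adjusted p = 0.51). A further one, Col1a2, was called lower by -0.83 (adjusted p = 0.36) when old-OSKM mouse 4 was left out, where 0.984% of all genes were called.

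Between old-OSKM and old mice 2 of 8 fibroblast and stellate markers were called higher (Col1a1 by 0.88, Col1a2 by 0.89). So were 1 of 8 macrophage markers (the complement gene C1qc by 1.02) and 1 of 8 adipocyte markers (the lipid droplet protein gene Plin1 by 1.53). Each of these genes had a limma adjusted p of 0.55, and Plin1 had a mean log2 RPKM of -3.26 in old mice. A raw p under 0.05 was found for 4, 7 and 4 genes of the 3 lists, against 8.07% of all genes, and the medians were 0.63, 0.76 and 1.23. Without old-OSKM mouse 4 none of the 3 lists held a called gene, and the medians were 0.34, 0.71 and 1.00. The genes with a raw p under 0.05 then numbered 3, 3 and 1, against 6.23% of all genes. In that fit 3 of 10 islet markers were called lower (Mafa by -1.36, Sst by -0.94, Ins1 by -1.09), against 0.775% of all genes called. Their limma adjusted p was 0.6 for Mafa and 0.61 for Sst and Ins1. With all 13 mice no islet marker was called.

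Between old-OSKM and young mice 4 of 8 B and plasma cell markers (Jchain by 3.04, Cd79b by 1.91, Pou2af1 by 1.81, Ms4a1 by 1.77) and 1 of 7 T cell markers (Cd3g by 1.70) were called higher. The limma adjusted p was 0.58 for Jchain and 0.71 for each of the others. Levels were low, with young means of -2.58 for Cd79b, -3.23 for Pou2af1, -3.08 for Ms4a1 and -3.11 for Cd3g. With old-OSKM mouse 4 left out, Jchain, Cd79b and Ms4a1 were called, Cd3g was not, and the islet marker Sst was called lower by -1.10. In that fit 0.766% of all genes were called, and the limma adjusted p of the called markers was 0.57 to 0.62. No duct, endothelial or acinar marker was called in any comparison, with or without that mouse. The part of these cell types in the trypsinogen values was not tested.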
